A study of Mus musculus with 16 samples.

Results

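The 9 genes described here are Ido1, Cxcl13, Ubd, Reg3b, Cd14, Cd74, H2-Aa, H2-Ab1 and H2-Eb1, genes of interferon response, antimicrobial defence and antigen presentation that had been listed because they were seen in clusters of luminal cells of the mouse mammary gland. They are 9 of the 17721 genes counted, and all 9 were present in the table. The choice rested on the same cells, so their levels in luminal against other cells are given as a description, with no test. Only comparisons between locations in the gland were tested.

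The cells came from single structures dissected from mammary glands during puberty and sequenced cell by cell in plates, with unique molecular identifiers (UMIs) that count each captured transcript end once. There were 16 fragments, namely 4 nipples (N21 to N24), 6 ducts (D31, D32, D51, D52, D61, D62) and 6 terminal end buds (TEBs, the growing tips of the ducts; T31 to T34, T42, T43). The donors were mice 5 weeks old of strain C57BL/6, with no treatment given, and with the genotype K14-Cre/R26-mTmG (the methods also name wild-type mice), in which the keratin 14 promoter drives Cre in basal cells and switches the colour of a membrane reporter. The labels do not say which mouse gave which fragment, whether fragments of 1 mouse are among them, or what the digits in the names stand for, so p-values measure the spread between these fragments only. The gate by which cells were sorted into the plates is not given in the sources used here.

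Luminal cells line the milk ducts and fall into a hormone-sensing ER+ type and an ER- type that holds the secretory precursors. Antigen presentation on MHC class II is mainly the work of macrophages, dendritic cells and B cells, in which H2-Aa, H2-Ab1 and H2-Eb1 form the peptide-binding molecules and Cd74, the invariant chain, escorts them. Interferon can also switch on class II in other cells, along with Ido1, which degrades tryptophan, and Ubd, a ubiquitin-like protein that marks proteins for the proteasome. Cxcl13 attracts B cells, Reg3b is a secreted antibacterial lectin, and Cd14 is the co-receptor that hands bacterial lipopolysaccharide to Toll-like receptor 4.

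Of 1419 deposited cells 1317 were kept, and each fragment held 1856141 to 5233122 UMIs over all its deposited cells, spike-ins included. Clusters were named from marker genes, which gave 426 ER+ luminal-like cells (43 from nipple, 211 from duct, 172 from TEB), 178 ER- luminal-like cells (48, 81 and 49), 294 basal-like, 228 fibroblast-like and 78 myeloid-like cells, with 113 cells left unnamed. The fragments shared 95 well barcodes, which mark positions in a plate rather than cells. The myeloid-like cluster was itself led by Cd74, H2-Aa, H2-Ab1 and H2-Eb1, and its naming used 14 other myeloid genes found in the table. A level is given below as CPM, the UMIs of a gene scaled to counts per 1000000 endogenous UMIs of the same cells (spike-ins left out). Each UMI stands for 1 transcript end, so CPM values carry no correction for gene length.

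The 4 antigen presentation genes stood far lower in luminal-like than in myeloid-like cells. Pooled over all fragments, Cd74 stood at 22.1 CPM in ER+ and 17.9 CPM in ER- luminal-like cells, against 21.8 CPM in basal-like, 26.0 CPM in fibroblast-like and 8643 CPM in myeloid-like cells. Luminal levels of Cd74 were thus like those of the basal-like and fibroblast-like cells, and 390-fold (ER+) and 484-fold (ER-) lower than in the myeloid-like cells. H2-Aa was 398-fold lower in ER+ and 469-fold lower in ER- than in myeloid-like cells, H2-Ab1 was 237-fold and 319-fold lower, and H2-Eb1 was 337-fold and 395-fold lower. Pooled levels mix locations, which the classes filled unequally. In TEBs the mean of ER+ against fibroblast-like cells was 26.6 against 12.8 CPM for H2-Ab1 and 15.7 against 7.62 CPM for H2-Aa. It was 14.4 against 10.5 CPM for Cd74 and 15.2 against 16.0 CPM for H2-Eb1. In nipples it was 25.4 against 27.8 CPM for H2-Ab1 and 17.6 against 18.2 CPM for H2-Aa. These genes lie on chromosome 17 of the mouse (build GRCm38), H2-Aa at 34282744 to 34287823 on the minus strand, H2-Ab1 at 34257689 to 34269419 and H2-Eb1 at 34305867 to 34316674 on the plus strand. Cd74 lies on chromosome 18 at 60803848 to 60812652 on the plus strand.

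The class II trace in luminal cells was the size of the trace left by myeloid genes in general. Expressed as a percent of the myeloid-like level, Cd74 came to 0.256% in ER+, 0.207% in ER-, 0.252% in basal-like and 0.301% in fibroblast-like cells. The 14 myeloid markers summed came to 0.29% in ER+, 0.33% in ER-, 0.356% in basal-like and 0.393% in fibroblast-like cells. Single myeloid markers ranged from 0.132% to 0.89% of their myeloid level in ER+ cells (median 0.278%), a range that held all 4 antigen presentation genes. If every one of those UMIs came from the source of the myeloid markers, in the proportions found in myeloid-like cells, the ratio of observed to expected UMIs would be 1. In ER+ cells that ratio was 0.856 for Cd74, 0.878 for H2-Aa, 1.43 for H2-Ab1 and 1.03 for H2-Eb1, and in ER- cells it lay between 0.589 (Cd74) and 0.911 (H2-Ab1). H2-Ab1 thus stood above the expected count in ER+ cells, with 480 UMIs against 334.7. The part of free RNA in these values was not tested.

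**Figure D1:**
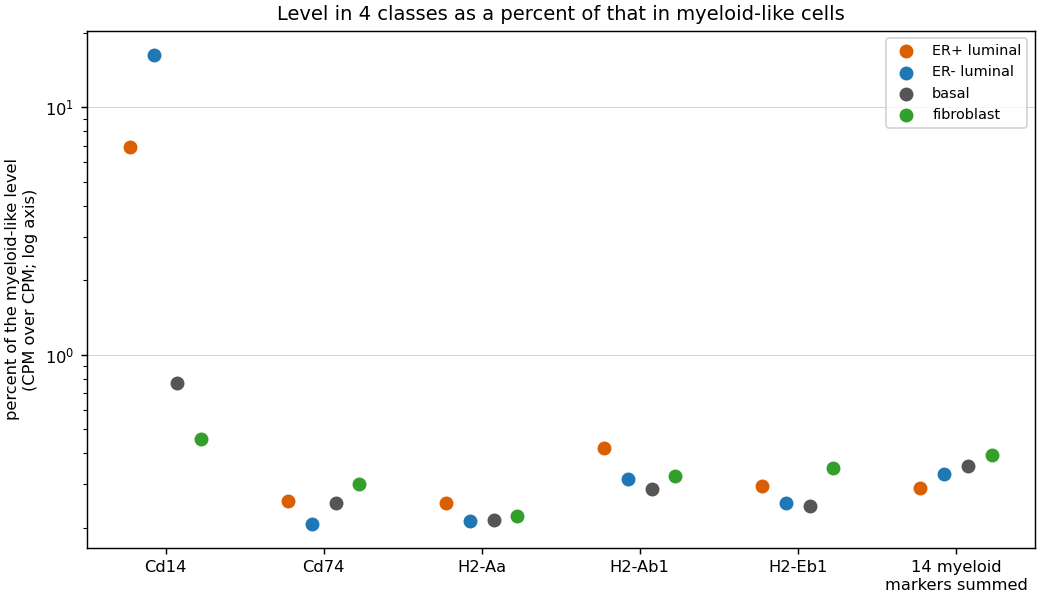
Levels of Cd14, Cd74, H2-Aa, H2-Ab1, H2-Eb1 and the sum of 14 myeloid markers in ER+ luminal-like, ER- luminal-like, basal-like and fibroblast-like cells, as a percent of the level in myeloid-like cells on a log axis, pooled over fragments. Cd14 stands at 6.93% and 16.3% in the luminal classes, while the other genes and the marker sum stay under 1% in every class.

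Counting cells gave the same picture. A Cd74 UMI was found in 50.7% of ER+ cells, at a median of 36258.5 endogenous UMIs per cell, and in 55.3% of fibroblast-like cells, at a median of 36416. After each cell was thinned to 5000 UMIs, which left out 1 kept cell, the shares were 12% for ER+ cells, 9.6% for ER- cells (unthinned 39.9%, median 26199 UMIs) and 14.5% for fibroblast-like cells, against 89.7% of myeloid-like cells. Thinned shares of ER+ cells were 10.8% for H2-Aa (exact 95% interval 8.01% to 14.1%), 12.7% for H2-Ab1 and 8.92% for H2-Eb1, against 7.46% (4.4% to 11.7%), 12.7% and 11.4% of fibroblast-like cells, which do not normally present antigen on class II. The intervals cover counting error only. Over all locations together, the ER+ shares of Cd74 and H2-Eb1 were below those of fibroblast-like cells, and the H2-Ab1 shares were alike. The H2-Aa share was above that of fibroblast-like cells by less than the counting error. Nipples gave 43 of 426 ER+ but 116 of 228 fibroblast-like cells. Whether these shares are background was not tested. The shares were not compared within single locations. No ER+ cell held more than 21 UMIs of a class II gene, whereas single myeloid-like cells reached 560 UMIs of Cd74.

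The promoters of H2-Aa and H2-Eb1 hold the CCAAT letters of the Y box, a module of class II promoters, close to their starts. These windows are shown because class II genes are known to be switched on through such a module, read by a complex that needs the co-activator Ciita. The capitals mark CCAAT, or ATTGG where it lies on the other strand, in sequence from RefSeq (GRCm38.p6), read along the strand of the gene. Of 32851 promoters of this length (250 bases before to 50 after the start) 37.4% hold CCAAT on either strand, so the match is a description only.
H2-Aa, chr17:34287854-34287883, minus strand, 48 bases before the start: gagaattttctgATTGGttctggcgagttt
H2-Eb1, chr17:34305796-34305825, plus strand, 59 bases before the start: cctttgatgctgATTGGctcccagcactgg
H2-Eb1, chr17:34305820-34305849, plus strand, 35 bases before the start: cactggccttacCCAATccagtggcaaagc

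Unlike the antigen presentation genes, Cd14 was carried by luminal cells well above the myeloid trace, and it was higher in ER- than in ER+ cells. It is a gene of chromosome 18, at 36725067 to 36726798 on the minus strand. Its pooled level was 131.6 CPM in ER+, 309.8 CPM in ER-, 14.7 CPM in basal-like, 8.66 CPM in fibroblast-like and 1899 CPM in myeloid-like cells. Luminal levels were 14.4-fold (ER+) and 6.13-fold (ER-) below the myeloid level. By the same ratio as above, ER+ cells held 2270 Cd14 UMIs where the myeloid markers would give 89.7, a ratio of 25.3, and ER- cells held 1839 where they would give 37.3, a ratio of 49.3. After thinning, 30.8% of ER+ cells (26.4% to 35.4%) and 51.4% of ER- cells (43.8% to 59%) held a Cd14 UMI, against 4.82% of fibroblast-like cells (2.43% to 8.47%) and 94.9% of myeloid-like cells. The unthinned shares were 69.2%, 72.5%, 22.8% and 97.4% in that order. In 58 ER+ and 65 ER- cells there were 10 or more Cd14 UMIs, with up to 131 in an ER+ cell and 111 in an ER- cell.

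The Cd14 levels varied between fragments within each location. In ER+ cells of the nipple fragments they were 202.4, 76.1, 140.5 and 145.1 CPM. In ducts they ran from 36.1 to 294.8 CPM (median 127 CPM), and in TEBs from 76.3 to 289.1 CPM (median 95.2 CPM). The groups overlapped throughout, and T42 alone set the top of the TEB range, with the next TEB at 114.1 CPM. In ER- cells the nipple fragments stood at 152.4, 196.1, 188.8 and 387.3 CPM, the ducts at 190.4 to 559.3 CPM (median 424 CPM), and the 4 TEBs with 5 or more ER- cells at 184.7, 110.1, 466.7 and 404.1 CPM. These groups overlapped too.

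No difference of Cd14 between locations passed the threshold, an adjusted p under 0.05, in either class. Differences are given as the first location minus the second on a log2 scale, from edgeR's quasi-likelihood test on UMI counts summed per fragment and class, adjusted by Benjamini-Hochberg over all genes tested. In ER+ cells Cd14 differed by 0.19 for nipple against TEB (SE 0.553, adjusted p = 0.909), by -0.01 for nipple against duct (SE 0.554, adjusted p = 0.998) and by 0.20 for duct against TEB (SE 0.484, adjusted p = 0.958). The last value passed the threshold only where the label digits of duct and TEB were entered as a block (adjusted p = 0.00692 for the first digit and 0.00244 for the whole number), and the digits were not shown to pair the fragments. In ER- cells it differed by -0.19 (SE 0.428, adjusted p = 0.886), -0.69 (SE 0.395, adjusted p = 0.563) and 0.50 (SE 0.39, adjusted p = 0.784) in the same order. Whether the location difference itself differed between the classes was also tested, with the fragment as a term, and for nipple against duct that value was 0.999 (SE 0.618, adjusted p = 0.778).

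Ido1, Cxcl13 and Ubd were found mainly in ER+ luminal-like cells. Ido1 stood at 69.3 CPM in ER+ cells and at 0.674, 0.682 and 1.35 CPM in ER-, basal-like and fibroblast-like cells, and it had no UMI in 78 myeloid-like cells, which allows a share of up to 3.85% of cells with a UMI. Ubd stood at 63.8 CPM in ER+, 9.27 CPM in ER-, 1.36 CPM in basal-like, 1.13 CPM in fibroblast-like and 3.53 CPM in myeloid-like cells. Cxcl13 stood at 49.5 CPM in ER+ cells, 1.18 CPM in ER-, 0.227 CPM in basal-like and 0.589 CPM in myeloid-like cells, but at 20.5 CPM in fibroblast-like cells. So the Cxcl13 of the gland was not limited to luminal cells, and 175 of its fibroblast UMIs lay in 14 of the 68 cells of 1 cluster led by Pi16 and Akr1c18, of which 64 cells came from TEBs.

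Against myeloid-like cells, the ER+ level of Ido1 was 39.2-fold higher if 3 UMIs are taken for the whole myeloid class. The ratio was 18.1 for Ubd (95% counting interval 8.27 to 49.3). For Cxcl13 it was 84, with an interval of 15 to 3320, since it rests on 1 myeloid UMI. The 3 UMIs and both intervals treat each UMI as independent, while single ER+ cells held up to 147 UMIs of Ido1, 159 of Ubd and 151 of Cxcl13. A share of up to 3.85% of the 78 myeloid-like cells could hold Ido1. The value of 39.2 is therefore no lower bound, and the intervals leave out the spread between cells. In position, Ido1 lies on chromosome 8 at 24584136 to 24597009 (minus strand), Cxcl13 on chromosome 5 at 95956951 to 95961068 (plus strand) and Ubd on chromosome 17 at 37193892 to 37196095 (plus strand).

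**Figure D2:**
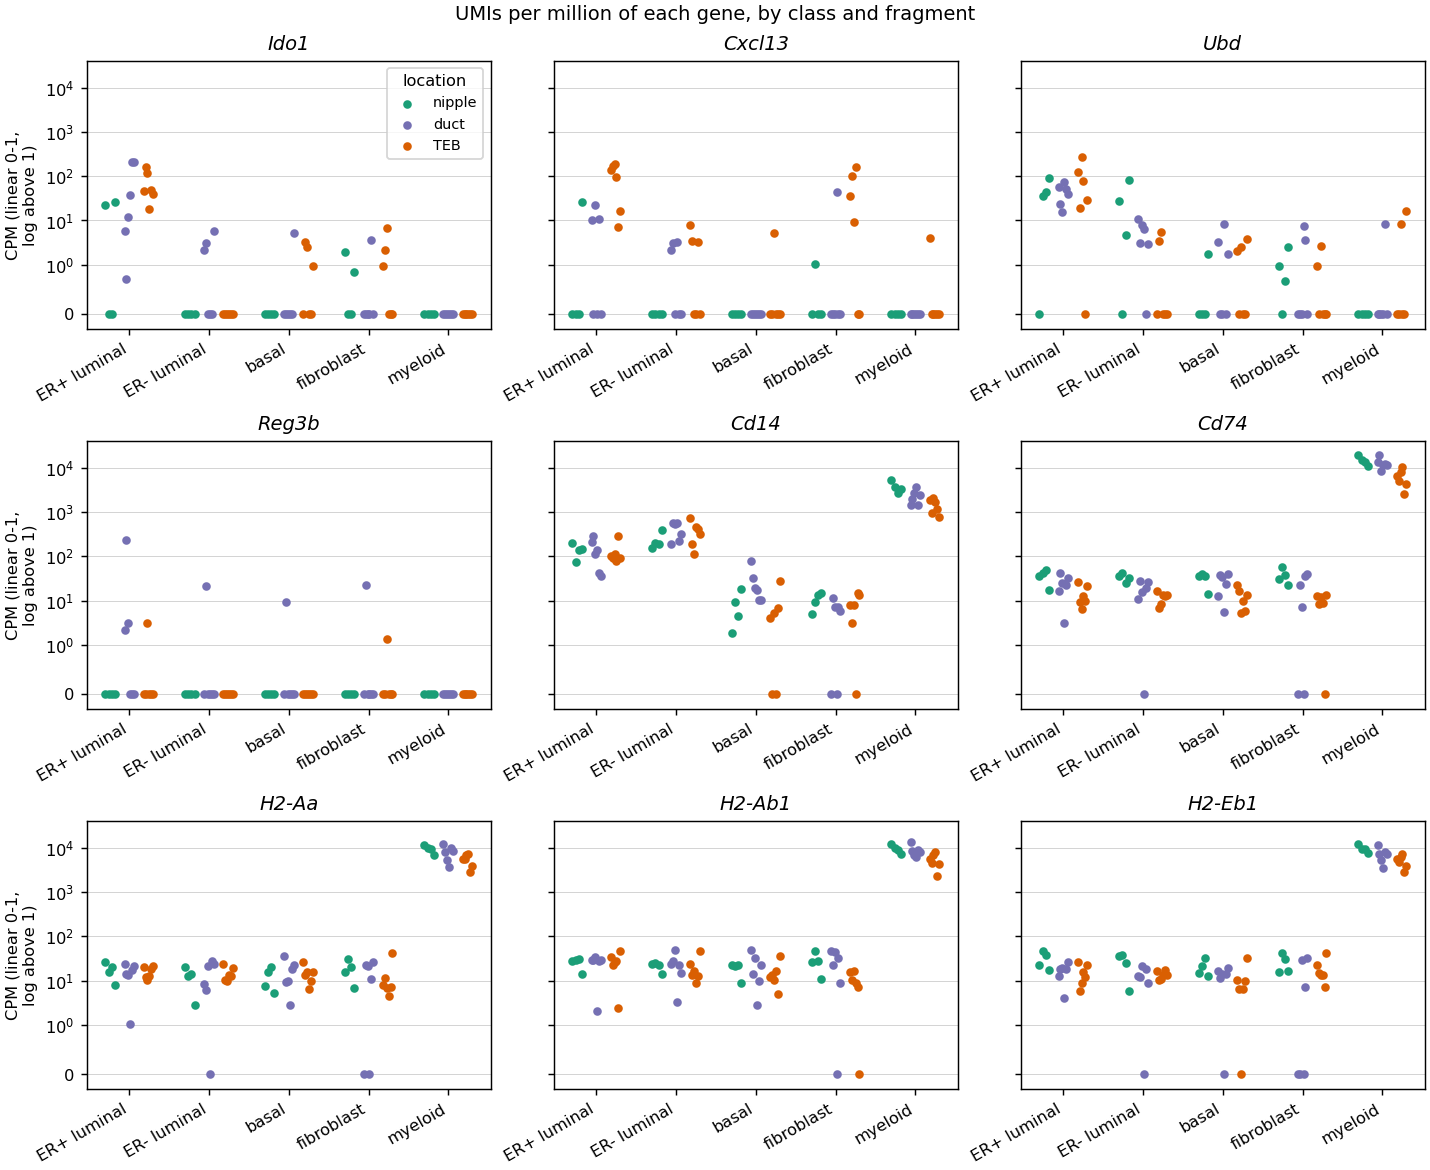
CPM of each of the 9 members in ER+ luminal-like, ER- luminal-like, basal-like, fibroblast-like and myeloid-like cells, each point the summed cells of 1 fragment, on a scale that is linear near 0 and logarithmic above. Ido1 and Ubd are highest in ER+ cells, Cd14 is above the basal-like and fibroblast-like cells in both luminal classes, and Cd74 and the 3 class II genes are high in myeloid-like cells alone.

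A few ER+ cells held most of these UMIs. Ido1 was found in 75 of 426 ER+ cells (17.6%, or 10.1% after thinning, against 4.82% and 0.439% of fibroblast-like cells), and its 10 highest cells held 57.7% of its UMIs. Ubd was found in 81 cells (19%, thinned 11.3%, against 4.39% and 0.877%), and its 10 highest cells held 60.6%. Cxcl13 was found in 39 cells (9.15%, thinned 6.1%, against 7.02% and 4.39% of fibroblast-like cells), and its 10 highest held 80.1%. The thinned share of Cxcl13 in ER+ cells, with an interval of 4.03% to 8.82%, overlapped that of fibroblast-like cells at 2.12% to 7.92%, so in cell share the 2 classes could not be told apart. Single ER+ cells reached 147 UMIs of Ido1, 159 of Ubd and 151 of Cxcl13.

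Few ER+ cells were rich in any of these genes, and few were rich in more than 1. Of 26 ER+ cells with 10 or more Ido1 UMIs, 27 with as many Ubd UMIs and 18 with as many Cxcl13 UMIs, 3 cells were shared by Ido1 and Ubd, 1 by Ido1 and Cxcl13 and 0 by Cxcl13 and Ubd. Ido1-rich cells were thus 11.1% of the Ubd-rich cells, where they were 26 of all 426 ER+ cells, and counts this small do not tell these shares apart. Together they made up 67 cells, and 33 of those came from TEBs, 29 from ducts and 5 from nipples. These 67 cells were deeper than the 266 ER+ cells with no UMI of the 3 genes, with a median of 46527 against 33055 UMIs per cell, and both sets had a median of 2 myeloid marker UMIs. Their hormone receptor genes were at like levels, with Pgr at 112 against 126.6 CPM, Prlr at 999 against 892 CPM and Esr1 at 35.9 against 46.2 CPM. Psmb8, a subunit of the immunoproteasome, stood at 374.5 against 277.8 CPM, B2m at 2681 against 2633 CPM and Cd74 at 15.7 against 24.2 CPM. These are values of cells chosen by their level, and no test was run on them.

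**Figure D3:**
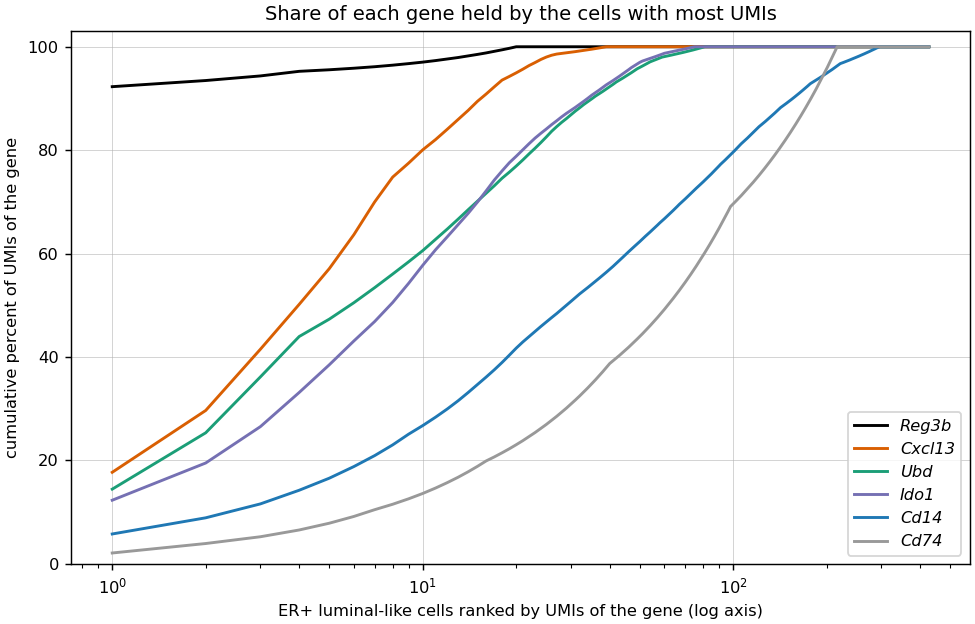
Cumulative percent of the UMIs of Reg3b, Cxcl13, Ubd, Ido1, Cd14 and Cd74 against the number of ER+ luminal-like cells, ranked from the cell with the most UMIs of that gene. It takes 1 cell to reach 50% of the UMIs of Reg3b, 4 for Cxcl13, 6 for Ubd, 8 for Ido1, 29 for Cd14 and 62 for Cd74.

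The ER+ class was made of 2 clusters that the locations filled unequally. Cluster 0, with Prlr among its leading genes, held 15 nipple, 102 duct and 113 TEB cells, and cluster 2, with Cited1 among its leading genes, held 28, 109 and 59. Most nipple cells thus lay in cluster 2 and most TEB cells in cluster 0. Pooled levels in cluster 0 and cluster 2 were 104.5 and 43.8 CPM for Ido1, 100.6 and 37.2 CPM for Ubd, 75.6 and 30.5 CPM for Cxcl13, and 125.6 and 135.9 CPM for Cd14. Within clusters, Cxcl13 stood at 132.2 CPM in TEB and 5.01 CPM in duct cells of cluster 0, and at 68.7 and 7.32 CPM in those of cluster 2. The order of TEB over duct was therefore present in both clusters.

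Of the 8 members that passed the filter on low counts, Cxcl13 had the widest gap between locations in ER+ cells. The TEB fragments stood at 139.3, 170.6, 191.8 and 96.1 CPM (T31 to T34) and at 7.20 and 16.5 CPM (T42 and T43). The duct fragments stood at 10.3, 0, 22.3, 0, 10.7 and 0 CPM in the order given above, and the nipple fragments at 0, 0, 0 and 25.5 CPM. The 4 TEBs from T31 to T34 were above every duct and nipple fragment, while T42 and T43 lay within their range, so the groups overlapped. Means were 6.38 CPM ± 12.8 (SD, n = 4) in nipple, 7.21 CPM ± 8.99 (SD, n = 6) in duct and 104 CPM ± 78.1 (SD, n = 6) in TEB. TEBs were also highest in fibroblast-like cells, with Cxcl13 at 76.0 CPM ± 67.1 (SD, n = 4; T31 to T34). There nipples stood at 0.259 CPM (n = 4) and ducts at 0 CPM (n = 3), without overlap with TEBs.

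The Cxcl13 difference did not pass the threshold in the fit to all UMIs, and it did in some others. It was -3.87 between duct and TEB (SE 1.14, adjusted p = 0.145 by edgeR) and -3.81 between nipple and TEB (SE 1.44, adjusted p = 0.162). On sums of cells first thinned to 5000 UMIs, the edgeR values were -4.85 (SE 0.724, adjusted p = 2.58e-05) and -4.33 (SE 1.12, adjusted p = 0.00898). Over all alternatives the adjusted p ranged from 2.58e-05 to 0.265 for duct against TEB and from 0.00898 to 0.258 for nipple against TEB. Without the cell that held the most UMIs of each member the differences were -3.62 (adjusted p = 0.194) and -3.52 (adjusted p = 0.202). Nipple and duct differed by 0.05 (SE 1.49, adjusted p = 0.996).

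Ido1 was high in 2 ducts and uneven elsewhere. The duct fragments stood at 5.86, 0.707, 12.2, 37.2, 207 and 204.6 CPM, the nipple fragments at 22.1, 0, 0 and 25.5 CPM, and the TEB fragments at 46.8, 160.4, 118.9, 18.4, 48.0 and 40.3 CPM. D61 and D62 thus exceeded every TEB, with an Ido1 UMI in 12 of 25 and 17 of 35 ER+ cells, the other 4 ducts lay below the TEB median of 47.4 CPM, and the groups overlapped. The difference was -2.48 between nipple and TEB (SE 1.41, adjusted p = 0.387), -2.66 between nipple and duct (SE 1.41, adjusted p = 0.449) and 0.18 between duct and TEB (SE 1, adjusted p = 0.981). The last passed with the whole label number as a block (adjusted p = 0.00505), in a fit that rests on the 4 fragments numbered 31 and 32.

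Ubd was spread over all 3 locations. The nipple fragments stood at 0, 34.9, 43.4 and 90.9 CPM, the ducts at 15.2 to 73.4 CPM (median 45.9 CPM) and the TEBs at 0 to 273 CPM (median 53.2 CPM). No location stood apart, and T33 held the highest and T42 the lowest TEB value. Ubd differed by -1.01 between nipple and TEB (SE 1.08, adjusted p = 0.696), by -0.05 between nipple and duct and by -0.95 between duct and TEB (SE 0.902, adjusted p = 0.834). In ER- cells Ubd was at 0 to 83.2 CPM in nipple, 0 to 10.7 CPM in duct and 0 to 5.51 CPM in TEB fragments. The nipple to TEB difference of ER+ cells minus that of ER- cells was -4.26 (SE 1.67, adjusted p = 0.234).

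**Figure D4:**
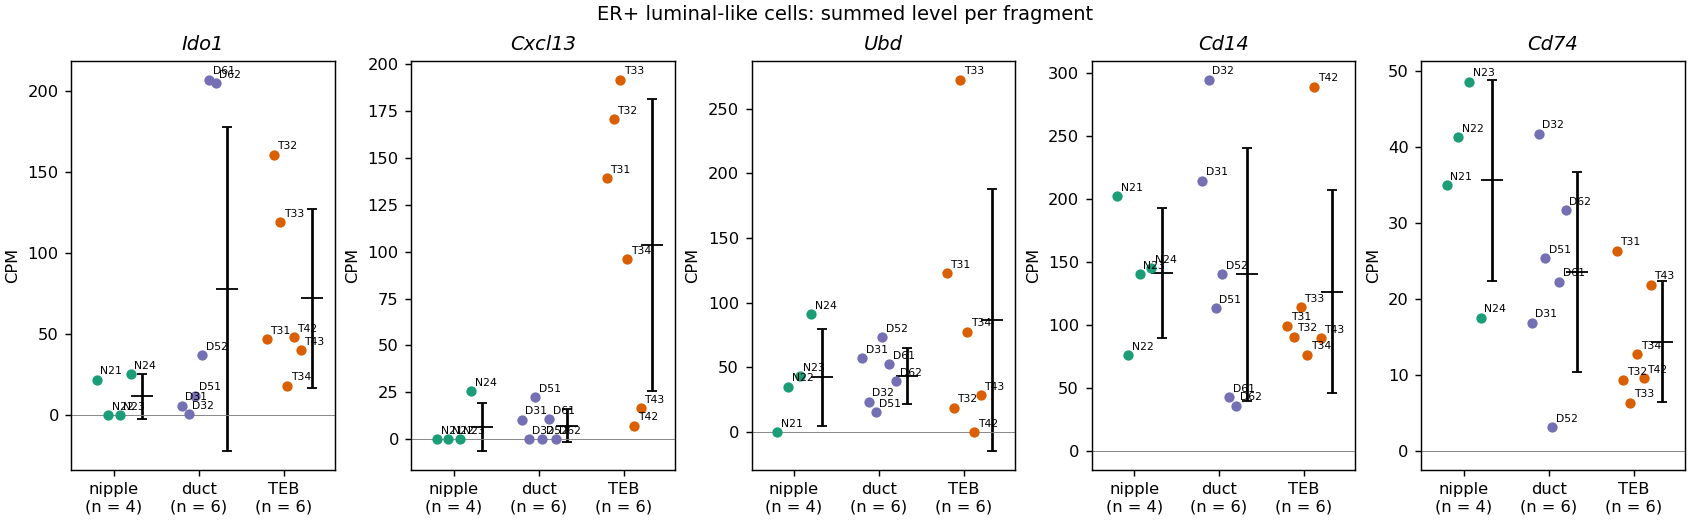
CPM of Ido1, Cxcl13, Ubd, Cd14 and Cd74 in ER+ luminal-like cells of each nipple (n = 4), duct (n = 6) and TEB (n = 6) fragment, with the mean and SD of each location and the fragment names beside the points. Cxcl13 is at 96.1 CPM or more in T31 to T34 and at 25.5 CPM or less in all other fragments, and the locations overlap for every gene shown.

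The promoter of Ubd also holds CCAAT letters, while the Cxcl13 window holds none of the 3 motifs searched, CCAAT, TTCNNNGAA (the interferon-gamma activated site, GAS) and the interferon-stimulated response element (ISRE, searched as TTTC and TTTC with any 2 bases between), on either strand. The Ubd windows are shown for comparison with those of H2-Aa and H2-Eb1, since the gene lies on the same chromosome and answers to interferon as they do.
Ubd, chr17:37193746-37193775, plus strand, 134 bases before the start: gaatacagatagATTGGctaaggggagaaa
Ubd, chr17:37193658-37193687, plus strand, 222 bases before the start: aactaaggcaggATTGGgagaaggtagggg

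Reg3b rested on a single cell. It lies on chromosome 6 at 78370657 to 78373466 on the plus strand. Its pooled level was 19.5 CPM in ER+ cells, 1.18 CPM in ER-, 0.454 CPM in basal-like, 0.338 CPM in fibroblast-like and 0 CPM in myeloid-like cells. No fold against myeloid-like cells is given, since 1 cell held most of the ER+ UMIs. Of its 337 ER+ UMIs 311 (92.3%) lay in 1 cell of duct D32, which had 82900 UMIs, 349 of them from the luminal keratin Krt18 and 1 from a myeloid marker. That cell had 0 UMIs of Ido1, Cxcl13, Ubd and of Reg3g, the close relative of Reg3b. The other 19 ER+ cells with a Reg3b UMI held 26 in all and at most 4 each. Most were again of D32, where 17 of 45 ER+ cells had a UMI and the level was 231 CPM, against 2.20 CPM in D31, 3.04 CPM in D51, 3.17 CPM in T33 and 0 in all other fragments. Among ducts with 5 or more cells of a class, D32 was also the only one with a Reg3b UMI in ER- cells (21.6 CPM), basal-like cells (9.26 CPM, 4 UMIs) and fibroblast-like cells (22.3 CPM, 2 UMIs), so a trace of it was present in each of these classes of that fragment. Reg3b did not pass the filter on low counts in either class. Fitted without that filter by edgeR, its ER+ difference between duct and TEB had an adjusted p = 0.302 and that between nipple and duct an adjusted p = 0.398, and no fold is given since it rests on that cell. Its promoter holds a GAS, a motif of 8.3% of the promoters, which is shown in capitals because interferon and other cytokines act through such sites.
Reg3b, chr6:78370746-78370775, plus strand, 129 bases before the start: agcctgttctTTCTTGGAAactctttgagt

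Among the 4 antigen presentation members, Cd74 had the widest gap between locations in ER+ cells. Cd74 stood at 35.0, 41.2, 48.6 and 17.5 CPM in the nipple fragments, at 3.10 to 41.7 CPM in ducts (median 23.8 CPM) and at 6.34 to 26.3 CPM in TEBs (median 11.2 CPM). Of the nipple fragments 3 lay above all TEBs and N24 did not. The difference was 1.29 between nipple and TEB (SE 0.55, adjusted p = 0.188), and the adjusted p ranged from 0.124 to 0.355 over the alternatives. In ER- cells, where Cd74 did not pass the filter, the nipple mean was 33.7 CPM ± 6.95 (SD, n = 4) and the TEB mean 10.2 CPM ± 3.25 (SD, n = 4), with no overlap. Without the filter that difference was 1.78 (SE 1.16, adjusted p = 0.48 by edgeR). The same order stood outside the luminal classes, with Cd74 at 37.2 CPM ± 15.3 (SD, n = 4) in nipple and 10.5 CPM ± 2.21 (SD, n = 4) in TEB fibroblast-like cells, again without overlap, and at 31.7 CPM ± 11.7 (SD, n = 4) and 12.2 CPM ± 6.66 (SD, n = 6) in basal-like cells.

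Cd74 of the myeloid-like cells was ordered the same way. It stood at 14400 CPM in 12 nipple, 11670 CPM in 25 duct and 5847 CPM in 41 TEB cells of that class, while the myeloid share of kept cells was 3.51%, 4.99% and 8.65%. The summed myeloid markers in ER+ cells were 38.6 to 82.9 CPM in nipple, 32.03 to 107.5 CPM in duct and 32.4 to 190.2 CPM in TEB fragments. Of the markers of other immune cells, 2 of 5 for T and NK cells, 1 of 3 for B cells and 6 of 8 for dendritic cells had a UMI in ER+ cells. The defining genes Cd3d, Cd3e and Nkg7 (T and NK), Cd79a (B) and Flt3 and Clec9a (dendritic) were at 0. The summed level per fragment was at most 1.70 CPM for T and NK, 0.849 CPM for B and 12.7 CPM for dendritic markers. The part of these cells in the Cd74 difference was not tested. H2-Eb1 differed by 1.03 between nipple and TEB (SE 0.556, adjusted p = 0.329), while H2-Aa differed by 0.17 and H2-Ab1 by -0.08.

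Counted over the members, 8 were tested in ER+ cells and 1, Cd14, in ER- cells, and 0 were called by edgeR in any pair of locations, against 5.57% of the 8781 genes tested in ER+ cells for nipple and TEB, 2% for nipple against duct, and 1.64% where ducts were set against TEBs. The background in ER- cells was 4.57%, 1.63% and 1.14% of 5706 genes in the same order. At an unadjusted p under 0.05 ER+ cells had 2 members that differed between nipple and TEB (Cxcl13 and Cd74), 1 for duct against TEB (Cxcl13) and 0 for nipple against duct, and ER- cells had 0. The same cut took in 1608 of all 8781 genes for nipple against TEB and 892 for duct against TEB, so these counts of members lay near the background. DESeq2 called 0 members in every pair, and it gave no adjusted p to Cd74, H2-Aa, H2-Ab1 and H2-Eb1 for duct against TEB. For the class by location term 9 members entered the fit and 0 were called, against 1.86%, 0.483% and 0.402% of 9942 genes.

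The same tests called genes of MHC class I, the molecules by which nearly all cells present peptides made by the proteasome. Of 22 genes listed for class I and peptide loading, 19 were in the table and 17 were tested in ER+ cells. Between nipple and TEB 9 were lower in nipple and 0 higher, namely B2m, H2-D1, H2-K1, Psme1, Psme2, Psmb8, Psmb9, Tap1 and Tapbp, and the list's median was -1.09 against -0.02 over all genes tested. Against duct 4 were lower in nipple (B2m, H2-D1, H2-K1 and Psmb8), and 2 were lower in duct than TEB (Psme1 and Psme2). In ER- cells 13 were tested and 0 were called in any pair, with a median of 0.35 between nipple and TEB.

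B2m, the light chain of class I, stood at 1177 CPM ± 322 (SD, n = 4) in nipple, 2711 CPM ± 248 (SD, n = 6) in duct and 2998 CPM ± 375 (SD, n = 6) in TEB, and its nipple fragments lay below all others. Its difference between nipple and TEB was -1.33 (SE 0.136, adjusted p = 4.07e-08 by edgeR). The heavy chains H2-D1 and H2-K1 differed by -1.19 (SE 0.124, adjusted p = 5.91e-08) and -1.09 (SE 0.123, adjusted p = 2.58e-07), and likewise did not overlap between nipple and the rest. Psme2, an activator subunit of the immunoproteasome, differed by -1.14 (SE 0.143, adjusted p = 1.18e-06). H2-D1 and H2-K1 belong to a family of near-identical genes, and reads that align to several members were not counted. Within clusters the order held, with B2m at 1130 CPM in nipple and 3120 CPM in TEB cells of cluster 0, and at 1231 and 2803 CPM in those of cluster 2.

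**Figure D5:**
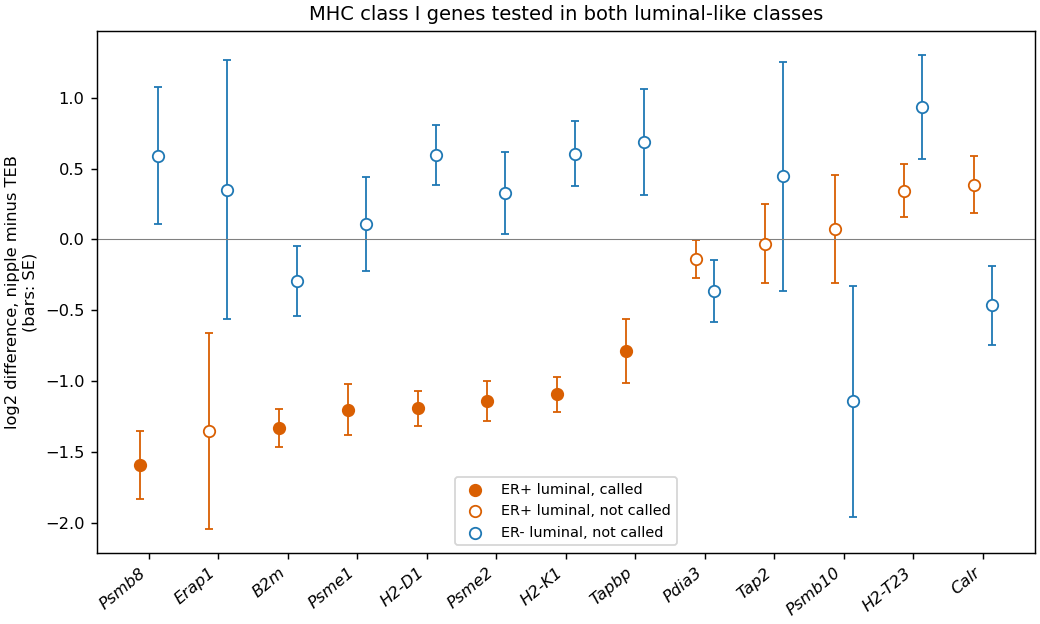
Log2 difference, nipple minus TEB, with its standard error, for 13 MHC class I and peptide loading genes tested in both luminal-like classes, with filled points for genes called at an adjusted p under 0.05. In ER+ cells B2m, H2-D1, H2-K1 and Psme2 lie between -1.33 and -1.09, while in ER- cells 0 of the 13 were called.

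The nipple to TEB difference of ER+ cells minus that of ER- cells was -1.82 for H2-D1 (adjusted p = 7.96e-08), -1.57 for H2-K1 (adjusted p = 7.93e-07) and -0.99 for B2m (adjusted p = 0.000427). In ER- cells H2-D1 stood at 912 CPM ± 109 (SD, n = 4) in nipple and 657 CPM ± 190 (SD, n = 4) in TEB, so its means ran in the opposite order there. The B2m value lost its call in several alternatives, for example with thinning (-0.70, adjusted p = 0.159), while H2-D1 and H2-K1 kept theirs in all that were run. Fibroblast markers in ER+ cells summed to 898 to 2220 CPM in nipple, 208 to 598 CPM in duct and 168 to 370 CPM in TEB fragments, and in ER- cells to 906 to 1527 CPM in nipple and 119 to 289 CPM in TEB fragments. Their part in the class I differences was not tested. The B2m promoter holds an ISRE, a motif of 3.44% of promoters, which is shown in capitals because it is the element through which interferon raises class I.
B2m, chr2:122147538-122147567, plus strand, 139 bases before the start: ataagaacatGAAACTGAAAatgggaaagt

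The other lists of the members' pathways differed in their share of calls, to be read against the background of 5.57% in ER+ and 4.57% in ER- cells for nipple against TEB. Of 14 MHC class II genes, the members included, 7 were tested in ER+ and 0 in ER- cells, and 0 were called by edgeR. Of 16 genes of lipopolysaccharide sensing, to which Cd14 belongs, 14 were tested in ER+ and 11 in ER- cells, and 0 were called. Of 36 interferon response genes 25 were tested in ER+ cells, with 1 higher (Bst2) and 3 lower (Usp18, Rtp4 and Rsad2) in nipple than TEB, and a median of -0.54. Usp18, which removes the ubiquitin-like Isg15 from proteins, stood at 17.5 CPM ± 9.51 (SD, n = 4) in nipple and 89.4 CPM ± 41.5 (SD, n = 6) in TEB, a difference of -2.27 (adjusted p = 0.000408). Bst2, a tether of budding viruses, differed by 0.76 (adjusted p = 0.00766), and by 0.63 without N24 (adjusted p = 0.0557). Rtp4 differed by -2.57 (adjusted p = 0.0137, and 0.0735 without T43). Irf1, an interferon-induced transcription factor, was lower in duct than TEB by -1.47 (adjusted p = 0.00432). In ER- cells 6 interferon genes were tested and 0 were called between nipple and TEB, while 1, Ifitm3, was higher in nipple than duct (1.33, adjusted p = 0.00265). Mean Ifitm3 was 2352 CPM in basal-like and 2516 CPM in fibroblast-like against 330 CPM in ER- cells. The part of RNA from those classes in its difference was not tested.

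Among chemokines, the family of Cxcl13, 11 of 18 listed genes were tested in ER+ cells, with 2 higher (Cxcl17 and Cxcl14) and 1 lower (Ccl7) in nipple than TEB. Mean Cxcl14 was 2216 CPM in basal-like against 25.4 CPM in ER+ cells. Mean Ccl7 was 2493 CPM in myeloid-like and 1017 CPM in fibroblast-like against 20.7 CPM in ER+ cells. Basal markers in ER+ cells summed to a median of 529 CPM in nipple, 452 CPM in duct and 50.1 CPM in TEB fragments. The part of RNA from those classes in the Cxcl14 and Ccl7 differences was not tested. Cxcl17, a mucosal chemokine, stood at 193 CPM ± 38.2 (SD, n = 4) in nipple, 199 CPM ± 21.9 (SD, n = 6) in duct and 60.5 CPM ± 12.5 (SD, n = 6) in TEB, a nipple to TEB difference of 1.69 (adjusted p = 1.02e-06). In ER- cells it differed by 6.41 (adjusted p = 6.85e-06), the TEB fragments there being at 0 to 4.40 CPM, so that the size of the fold is uncertain. Of 5 chemokines tested in ER- cells 3 were higher in nipple than TEB (Cxcl17, Cxcl16 and Cx3cl1), and Cxcl16 differed by 1.80 (adjusted p = 0.000552). Cx3cl1 lost its call without any of N21, N24, T33, T34 or T42 (adjusted p = 0.0562 to 0.118), and Cxcl14 without N23, T31, T33 or T34 (0.0512 to 0.165).

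For tryptophan and its breakdown, the pathway of Ido1, 5 of 13 genes were tested in ER+ and 3 in ER- cells. Slc3a2, a chain of amino acid transporters, was higher in nipple than TEB in both, by 0.85 (adjusted p = 0.00194) and 1.23 (adjusted p = 0.00134). Of 10 ubiquitin-like modifier genes 7 were tested in ER+ cells, with Usp18 and Ube2l6 lower in nipple than TEB, the latter without its call when any of N22, N23, N24 or T42 was left out (adjusted p = 0.051 to 0.0827), and 2 were tested in ER- cells with 0 called. Of 27 genes of antimicrobial and mucosal defence, 10 were tested in ER+ cells, where Muc1 was higher in nipple than TEB by 2.29 (adjusted p = 0.02, and 0.111 without N21). Of 9 tested in ER- cells, Wfdc2, a protease inhibitor of mucosal fluids, was higher in nipple than TEB by 3.51 (adjusted p = 2.76e-05). Slpi, another such inhibitor, was higher in nipple than duct by 3.69 (adjusted p = 0.0339, and 0.0552 to 0.212 without any of N21, N22, N23, D31, D51, D52, D62 or T34). Basal markers in ER- cells summed to 1736 to 3332 CPM in nipple, 274 to 784 CPM in duct and 57.8 to 190 CPM in TEB fragments. Mean Slpi was 575 CPM in basal-like against 65.1 CPM in ER- cells, and mean Wfdc2 was 118 against 239 CPM. The part of basal RNA in these differences was not tested.

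As an alternative, luminal cells with 3 or more myeloid marker UMIs were left out. This cut is a number of UMIs and not a share, so deeper cells reach it more readily. Both sets of ER+ cells compared above had a median of 2 such UMIs, close to the cut. The part of lost cells and depth in the changes was not tested. Without those cells, the ER+ calls between nipple and TEB of Usp18, Bst2, Rtp4, Muc1, Cxcl17, Cxcl14, Ccl7 and Slc3a2 were lost (adjusted p = 0.12 to 0.371), and so was that of Irf1 between duct and TEB (adjusted p = 0.14). Those of B2m, H2-D1, H2-K1 and Psme2 between nipple and TEB were kept. In ER- cells Ifitm3 lost its call in the same way (adjusted p = 0.219), and Cxcl16 and Slc3a2 lost theirs when 10 cells per sum were required (adjusted p = 0.184 and 0.583), which left 1 TEB fragment.

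Likeness of pattern was measured by Pearson's r over log2(CPM + 1) of 64 sums, each 1 class in 1 fragment, across 10784 genes. The sums share libraries and the difference between classes dominates them, so r is given with no p. Cd74, H2-Aa, H2-Ab1 and H2-Eb1 were most like each other (0.936 to 0.961), and Tnfsf14 came next (0.948 with H2-Aa, 0.945 with H2-Ab1). Cd14 was most like Cytip (0.875), Ptpn18 (0.838) and Serinc3 (0.825). Ido1 was most like Proc (0.786), Upk2 (0.785) and Gsta2 (0.775), and Ubd like Wfdc2 (0.724), Vtcn1 (0.715) and Pdzk1ip1 (0.704). The likest genes were weaker matches for Cxcl13, with Sytl2 at 0.648, Atp6v0e2 at 0.631 and Cxcl5 at 0.599, and for Reg3b, with Beta-s at 0.577, Reg3g at 0.454 and Ctla2a at 0.448.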

How the data were processed

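The series holds 3' SMART-seq libraries of single cells from 16 mammary fragments, sorted into plates with ERCC spike-ins. UMI-tools handled the UMIs, TrimGalore the adapters and STAR the alignment to mm10, from which unique alignments were passed to featureCounts. The counts deposited by the authors are UMIs per gene and cell, with no normalization. The 9 members and all gene lists were chosen with earlier results of these data known.

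Cells with 5000 to 120000 UMIs, 200 to 6000 genes and at most 5% spike-in UMIs were kept (1317 of 1419). The study's methods put its dataset at 1419 cells, the number deposited, while its results state a larger number after quality control. No doublet caller was run. Log-normalized values were scaled with regression of spike-in percentage, cell cycle and gene number, and clustered in Seurat 5.3.0 (R 4.3.3; 2000 variable genes, 14 components, resolution 0.5). Clusters were named from marker lists, which may differ from the study's names. UMI counts were summed per fragment and class where it had 5 or more cells, which left T31 and T43 out of the ER- class, and were tested with edgeR 4.0.16 (TMM scaling, genes kept by filterByExpr, and a robust quasi-likelihood fit of the 3 locations together; p-values were adjusted by Benjamini-Hochberg and called under 0.05), with DESeq2 1.42.0 as an alternative. The class by location fit had the fragment as a term. Scripts were tested on simulated data. Other alternatives were the clustering, the classes, filters, normalization, thinning, the replicate block and leaving out each fragment.

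Text names all 9 members, the 3 genes most like each, and, from each list, up to 4 called genes per class with the smallest p. Further genes of the class I and interferon lists that are named were called ones, and genes of the cells rich in Ido1, Cxcl13 or Ubd were chosen from the lists and markers. Gene positions are from GENCODE on GRCm38 and promoter windows from RefSeq, which held 5 of the 9 members (Cxcl13, Ubd, Reg3b, H2-Aa, H2-Eb1). Intervals are exact binomial (Clopper-Pearson) or exact for a ratio of counts, at 95%.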

Additional observations from a re-analysis of the deposited data

Results flagged for a closer look

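Within groups of 4 to 6 fragments, 6 of 54 groups of member levels held a fragment flagged as far from the rest of its location. The flag used Dixon's ratio, the gap to the nearest fragment over the whole range. Where all other fragments were at 0 any value is flagged, so the usual rate of 1 in 20 does not hold and the count cannot be set against chance. In ER+ cells these were Reg3b in D32 (231 CPM, the next duct at 3.04 CPM), Reg3b in T33 (3.17 CPM, all other TEBs at 0), H2-Ab1 in D52 (2.07 CPM, the next lowest duct at 27.6 CPM), Cxcl13 in N24 (25.5 CPM, the other nipples at 0) and Cd14 in T42 (289.1 CPM, the next TEB at 114.1 CPM). In ER- cells it was Reg3b in D32 (21.6 CPM, all other ducts at 0).

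The difference between locations itself differed between ER+ and ER- cells for 7 genes of the class I list. For nipple against TEB the difference in ER+ minus that in ER- cells was -0.99 for B2m, -1.82 for H2-D1, -1.57 for H2-K1, -2.10 for Psmb8, -1.30 for Psme1, -1.51 for Psme2 and -1.59 for Tapbp on the log2 scale. For nipple against duct it was -0.94 for B2m, -1.30 for H2-D1 and -1.33 for H2-K1. These come from the class by location term of the edgeR fit.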

How the results depend on the processing

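No member was called when any single fragment was left out, or under DESeq2, other normalization, filters or class definitions, except as follows. Members called between nipple and TEB in ER+ cells rose to 1 with thinning. Between duct and TEB they were 1 without cells holding 3 or more myeloid UMIs, 1 with thinning, 1 with a replicate block on the first label digit and 3 with one on the whole number. The label numbers were not shown to pair the fragments. Duct and TEB fragments of 1 number had correlations of deviations of -0.00426 (31) and -0.0195 (32) in ER+ and 0.0418 (32) in ER- cells. So few pairs cannot decide whether fragments share a source, and the first digit was not checked. With the block on the first digit or the whole number 134 and 183 genes were called between duct and TEB in ER+ cells, against 144, and 78 with the first digit in ER- cells, against 65. The whole-number block could not be fitted in ER- cells. Cd14's class by location value for nipple against duct turned to -0.0143 with thinning.

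The order of counts below is nipple against TEB, nipple against duct, duct against TEB. Without cells holding myeloid UMIs, genes called were 215, 77 and 53 in ER+, 141, 40 and 41 in ER- and 117 and 23 (first pairs) for the class by location term. Thinning gave 221 and 81 in ER+ and 150 in ER- cells (first pairs). DESeq2 gave 289 and 228 (last pairs) in ER+, 406, 178 and 136 in ER- and 380, 94 and 111 for the term. Requiring 10 cells per sum left T33 as the only ER- TEB, assumed to vary like the others, and gave 36 (first pair) and 0 (last) in ER-, with 32 and 7 for the term. No filter gave 155 and 112 (last pairs) in ER- and 99 and 75 for the term. Classes from marker lists gave 30 for the term (nipple against duct), and scaling without regression 25 (duct against TEB). Leaving out 1 fragment gave 421 to 523, 138 to 189 and 102 to 185 in ER+, 162 (without T42) to 292, 55 (without N24) to 111 and 27 (without T42) to 86 in ER-, and 140 to 195, 30 (without N21) to 57 and 22 (without T42) to 48 for the term. H2-D1 and H2-K1 kept their calls under all alternatives run. The B2m class by location call was lost under classes from marker lists, without cells holding myeloid UMIs, with 10 cells per sum and with thinning. The causes of these changes were not tested. In the ER- class 8 of 9 members did not pass the filter on low counts, and neither their levels there nor the depth of that class was tested as the reason.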

Other observations

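Outside the named classes, 70 unnamed cells led by Fabp4, Gimap6, Ube2c and Birc5 held Ubd at 60.5 CPM (18 cells with a UMI, at most 74 UMIs in 1 cell), Ido1 at 16.5 CPM (10 cells) and Cxcl13 at 1.53 CPM. The cluster also held the luminal keratin Krt18 at 3205 CPM, and it was entered in no comparison.

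Reg3g, an antibacterial lectin of the same family as Reg3b, was at 2.53 to 189.1 CPM in ER+ cells of ducts (median 78.7 CPM), 0 to 16.0 CPM in nipples and 0 to 42 CPM in TEBs (median 5.94 CPM).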
